A study of Saccharomyces cerevisiae with 11 samples.

Results

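The 9 genes described here encode the chaperones of the mitochondrial matrix of budding yeast (Saccharomyces cerevisiae). They were chosen by name, as the mitochondrial Hsp70 system (SSC1, MDJ1, MGE1, ECM10, SSQ1 and JAC1), the Hsp60 chaperonin (HSP60 and HSP10) and the unfoldase HSP78. All 9 were measured, among 5449 genes tested, and each had 1 probe set. RNA was measured on Affymetrix arrays in 4 samples carrying a plasmid for CFTR, the human chloride channel, with an HA tag behind a PGK promoter (pRS426PPGK-CFTR-3HA), and in 7 samples carrying the vector pRSGPD426. The vector has a GPD promoter, so the promoter differs between the groups as well. Cultures were grown selectively at 26 degrees and harvested in mid log phase, and the labels name no strain. The series text names biological replicates without tying arrays to cultures, so the p-values reflect spread among these arrays only, and some of it may be technical. The CFTR transcript itself was not analysed here.

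Nearly all mitochondrial proteins are made in the cytosol and enter the matrix unfolded. Ssc1, the main matrix Hsp70, pulls them in and holds them. The J protein Mdj1 delivers substrates to it and stimulates its ATPase, and Mge1 is its nucleotide exchange factor. The chaperonin Hsp60 with its lid Hsp10 folds many imported proteins, and Hsp78, a ClpB-type ATPase and the mitochondrial relative of cytosolic Hsp104, helps to recover aggregated ones. Ssq1 is a specialised Hsp70 that works with the J protein Jac1 on iron-sulfur clusters, and Ecm10 is a close paralog of Ssc1. Heat shock factor Hsf1 is known to drive cytosolic chaperones and several of these mitochondrial ones.

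The controls have features that touch every value below. The titles of all 7 vector arrays, and of no CFTR array, carry the mark "re-analysis". A difference that follows this mark and CFTR cannot be told apart. The sample codes of the CFTR arrays (7 to 10) lie between those of vector replicates 1 to 3 (3 to 5) and 4 to 7 (11 to 14), so a batch that follows the codes and CFTR cannot be told apart. Vector replicate 3 resembled the CFTR arrays more than its own group: across genes, which are no independent replicates, its r was 0.986 to 0.995 with CFTR arrays, against 0.952 to 0.974 with vector arrays. Levels are log2 of the deposited intensity, which is scaled to a mean of 1 on each array. The background limit of -1.17 is the 95th percentile of probe sets not matched to a yeast gene.

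MDJ1 and HSP78 rose in CFTR arrays by nearly the same factor, 1.91-fold and 1.97-fold, while no other mitochondrial chaperone gene passed the test in either direction. SSC1, HSP60, HSP10 and MGE1, the genes of the main Hsp70 and of the chaperonin, had log2 fold changes between -0.01 and 0.13. The 2 called members are to be read beside the background: over all 5449 genes 0.496% were called higher and 0.422% lower (limma, Benjamini-Hochberg adjusted p under 0.05). The members were chosen with earlier results of these data known, so the 2 calls are no test of the group. Whole cultures were measured, so a rise in every cell and a larger one in some cells cannot be told apart. Both calls depended on the arrays used, as described below.

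MDJ1 had log2 levels of 1.33, 1.30, 1.35 and 1.22 in the 4 CFTR arrays. Its 7 vector arrays ran from 0.04 to 1.02 with a median of 0.16. All CFTR arrays lay above all vector arrays, which was so for 2.4% of all genes and for MDJ1 alone among the 9. The means were 1.30 ± 0.06 in CFTR arrays and 0.37 ± 0.37 in vector arrays (SD, n = 4 and n = 7), a log2 fold change of 0.93 (SE 0.17, 95% interval 0.55 to 1.31, limma adjusted p = 0.036). The spread of the vector group came from 3 separate levels: replicate 3 at 1.02, replicates 1 and 2 at 0.63 and 0.56, and replicates 4 to 7 between 0.04 and 0.16. The CFTR arrays differed among themselves by far less than the 7 controls did, but about as much as vector replicates 4 to 7 (SD 0.057 and 0.049).

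HSP78 had log2 levels of 1.975, 2.040, 2.027 and 2.099 in the CFTR arrays. In the vector arrays it ran from 0.70 to 1.98 with a median of 0.95. A single vector array reached the CFTR group: replicate 3, at 1.978, stood just above CFTR replicate 1, and the next highest, replicate 4, was at 1.24. The means were 2.04 ± 0.05 in CFTR arrays and 1.06 ± 0.45 in vector arrays (SD, n = 4 and n = 7), a log2 fold change of 0.98 (SE 0.20, 95% interval 0.53 to 1.42, limma adjusted p = 0.048). Vector replicates 1 and 2 had 0.955 and 0.957, and replicates 5 to 7 had 0.73, 0.70 and 0.84. Apart from replicate 4, replicates 1 and 2 thus stood above the later codes for HSP78 as they did for MDJ1, by a smaller amount.

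**Figure D1:**
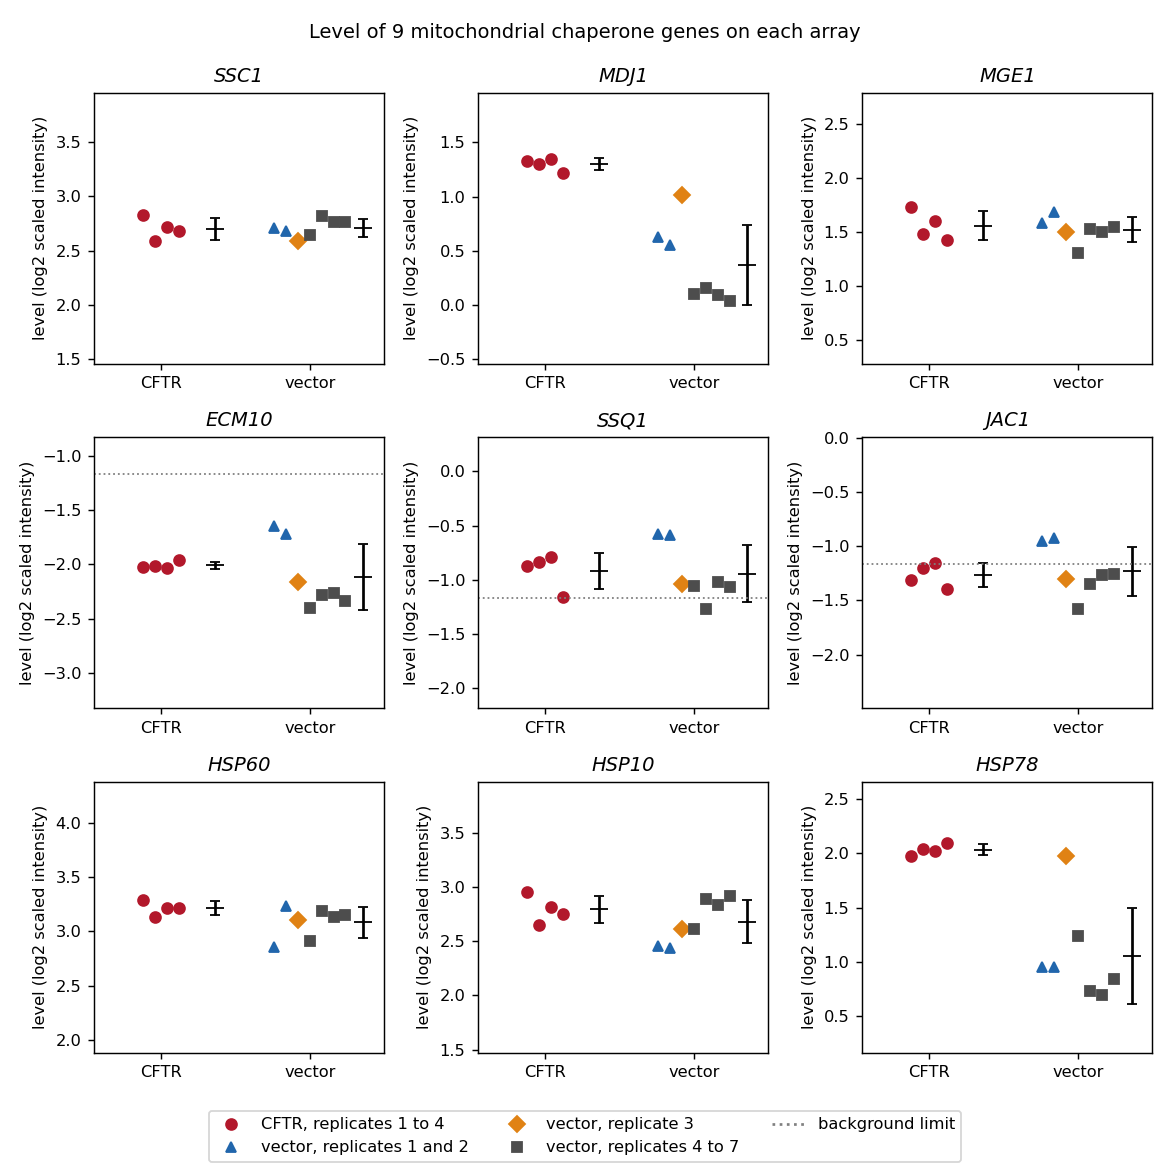
Log2 scaled intensity (vertical axis, the same span of 2.5 in every panel) of each gene on each CFTR array and each vector array, with the mean and SD of each group as a bar beside the points. MDJ1 and HSP78 separate the groups except for vector replicate 3 (HSP78) and the other 7 genes overlap; the dotted line is the background limit of -1.17.

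SSC1, whose product is the Hsp70 partner of Mdj1, had 2.83, 2.58, 2.72 and 2.68 in the CFTR arrays. Its vector arrays ran from 2.58 to 2.82 with a median of 2.71, all within the range of the CFTR arrays. The log2 fold change was -0.01 with a 95% interval of -0.15 to 0.14, which leaves room for a fold between 0.900 and 1.10 (limma adjusted p = 0.97). MGE1, the exchange factor, had 1.73, 1.49, 1.60 and 1.43 in CFTR arrays and ran from 1.30 to 1.68 in vector arrays with a median of 1.52. In 6 of the 7 vector arrays MGE1 lay within the CFTR range, and its log2 fold change was 0.04 (95% interval -0.14 to 0.22, limma adjusted p = 0.84).

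HSP60 had 3.29, 3.14, 3.22 and 3.22 in CFTR arrays and ran from 2.85 to 3.24 in vector arrays with a median of 3.14. The CFTR arrays were at the upper end of the vector range, with 3 vector arrays inside the CFTR range and 4 below it. The log2 fold change was 0.13 (95% interval -0.04 to 0.31, limma adjusted p = 0.40). HSP10 had 2.96, 2.65, 2.81 and 2.75 in CFTR arrays and ran from 2.44 to 2.92 in vector arrays with a median of 2.62, again with 3 vector arrays inside the CFTR range and 4 below it. Its log2 fold change was 0.11 (95% interval -0.12 to 0.35, limma adjusted p = 0.61). Within the vector group HSP10 was lowest in replicates 1 and 2 (2.46 and 2.44) and highest in replicates 5 to 7 (2.83 to 2.92), the reverse of the step seen in MDJ1. An interval that includes 0 does not show that these genes are unaffected, but for SSC1, MGE1, HSP60 and HSP10 its upper bound, 0.35 at most, lay below the lower bound of MDJ1 and HSP78 with all 11 arrays. Against vector replicates 1 to 3 alone this did not hold: the upper bounds of HSP10 and HSP60 were 0.495 and 0.376, above the lower bounds of MDJ1 (0.297) and HSP78 (0.186). In that fit the upper bound of SSC1 (0.221) also lay above the lower bound of HSP78, and that of MGE1 (0.184) lay below it. With median centring of all 11 arrays the upper bound of HSP10 (0.582) lay above the lower bound of HSP78 (0.544) and below that of MDJ1 (0.653).

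**Figure D2:**
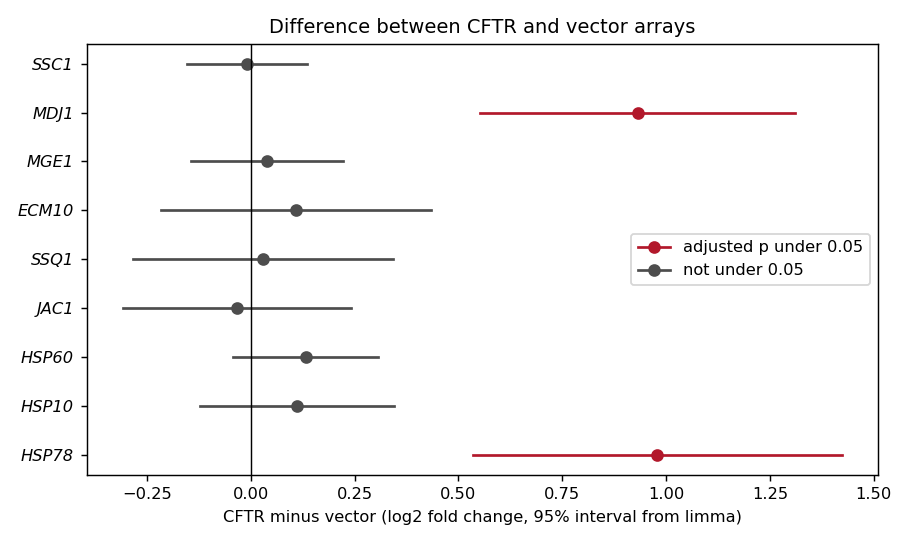
Log2 fold change of CFTR over vector arrays (horizontal axis) with its 95% interval from limma for each of the 9 genes (rows). The intervals of MDJ1 (0.55 to 1.31) and HSP78 (0.53 to 1.42) lie above 0, and the other 7 include 0.

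Whether MDJ1 and HSP78 changed more than the rest of the system was tested on the log2 ratio of 2 genes within each array, which removes the array's scaling. The 8 ratios of MDJ1 or HSP78 to SSC1, HSP60, HSP10 and MGE1, the members above the background limit on all arrays, were chosen after the changes had been seen. The MDJ1 to SSC1 ratio averaged -1.40 ± 0.09 in CFTR arrays (SD, n = 4) and -2.34 ± 0.43 in vector arrays (SD, n = 7), with no overlap (exact two-sided permutation p = 0.0061, the lowest value possible with 330 splits; adjusted p = 0.016 over 8 ratios). The HSP78 to SSC1 ratio was -0.67 ± 0.14 in CFTR arrays and -1.65 ± 0.52 in vector arrays (SD, n = 4 and n = 7) (exact permutation p = 0.018, adjusted p = 0.021). Vector replicate 3, at -0.61, lay inside the CFTR range for this ratio, and the other vector arrays lay at or below -1.40. Over all 8 ratios the difference between the groups was 0.80 to 0.99 on the log2 scale, with exact permutation adjusted p between 0.016 and 0.024. Since the same arrays had picked out MDJ1 and HSP78, these values describe the size of the gap and are not independent evidence for it. The permutation also counted the vector arrays described below as near copies as separate arrays, and was not repeated with those averaged.

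ECM10, the paralog of SSC1, and SSQ1 and JAC1, of iron-sulfur cluster assembly, were dim. ECM10 lay under the background limit on all 11 arrays, JAC1 lay above it on 3 and SSQ1 on 10, so the sizes of their differences are uncertain. ECM10 had -2.02, -2.02, -2.04 and -1.96 in CFTR arrays and ran from -2.41 to -1.65 in vector arrays with a median of -2.26. SSQ1 had -0.87, -0.84, -0.79 and -1.16 in CFTR arrays, and in vector arrays it ran from -1.27 to -0.58 with a median of -1.04. JAC1 had -1.31, -1.20, -1.15 and -1.40 in CFTR arrays and ran from -1.58 to -0.93 in vector arrays with a median of -1.26. None of the 3 passed the test (limma adjusted p = 0.74, 0.94 and 0.92). ECM10, SSQ1 and JAC1 shared one feature within the controls: vector replicates 1 and 2 were the 2 highest arrays of all 11, at -1.65 and -1.72 for ECM10, -0.58 and -0.58 for SSQ1 and -0.95 and -0.93 for JAC1. Those 2 arrays also had the highest medians over all probe sets, 0.272 and 0.266 on the scaled linear scale, against 0.219 to 0.237 in the other 9. The part that this difference in distribution played was not tested, and ECM10 shares much of its sequence with SSC1, so that its probe set may pick up SSC1 transcripts.

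The calls for MDJ1 and HSP78 rested on the choice of controls. Without vector replicate 3 the log2 fold change was 1.04 for MDJ1 and 1.13 for HSP78 (limma adjusted p = 0.0013 and 0.00023), where 4.04% of all genes were called higher and 5.52% lower. That gain follows in part from leaving out the highest vector array of both genes. For HSP78 it lay inside the CFTR range (1.98), and for MDJ1 it lay below all CFTR arrays (1.02). Against vector replicates 4 to 7 alone MDJ1 had 1.20 and HSP78 1.16 (adjusted p = 8.4e-06 and 0.00021), where 26.9% of all genes were called higher. ECM10 was the one further member called in that fit (0.31, adjusted p = 0.0011), at a level below the background limit. Against vector replicates 1 to 3 alone MDJ1 had 0.57 and HSP78 0.74, and neither passed (adjusted p = 0.18 for both), where 0.0184% of genes, a single one, were called higher. Some vector arrays were near copies of each other: the log2 difference across genes had an SD of 0.11 between replicates 1 and 2 and of 0.10 between replicates 5 and 7, where the median pair of vector arrays had 0.48. When each of these pairs was averaged and counted as 1 array, MDJ1 had 0.92 and HSP78 0.90, and neither passed (adjusted p = 0.13 and 0.18), again with 0.0184% of genes called higher.

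**Figure D3:**
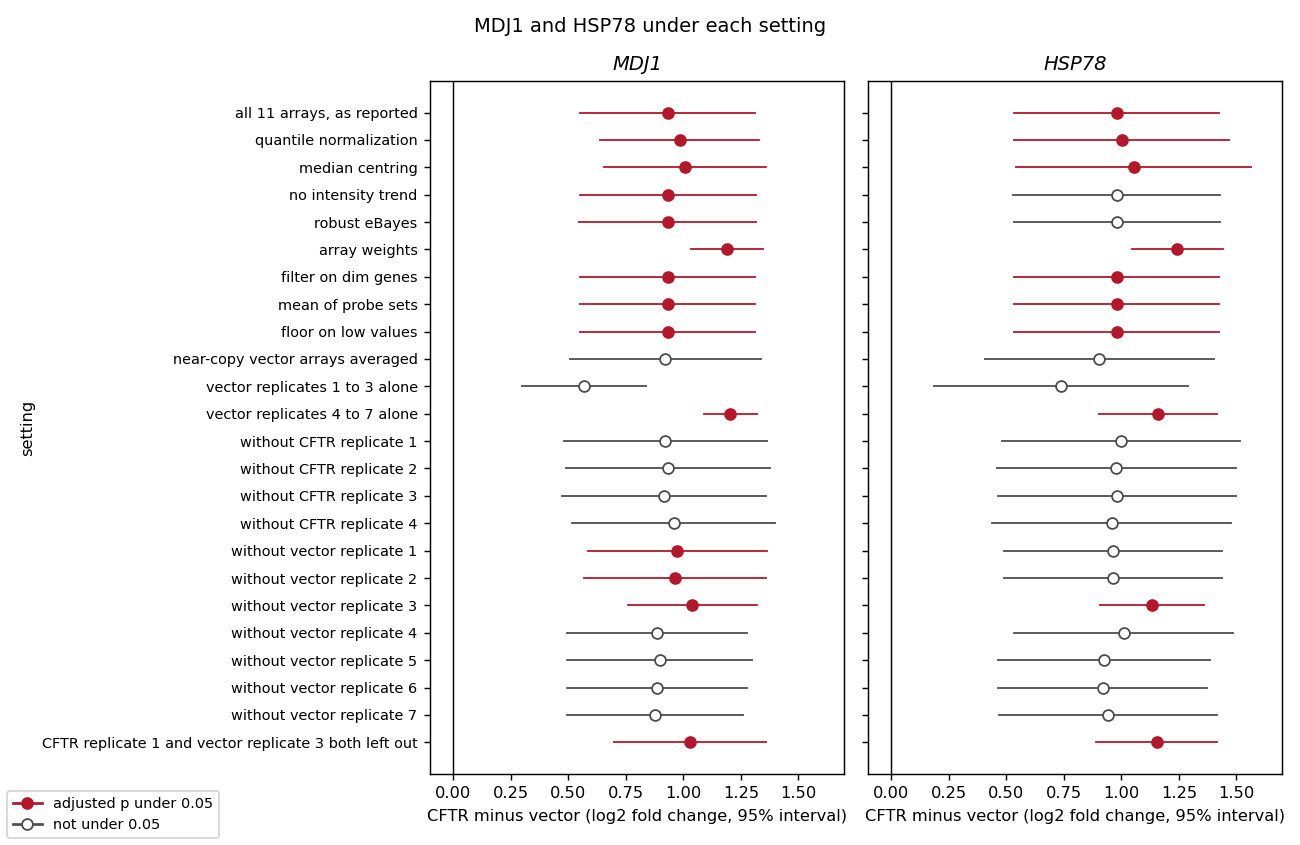
Log2 fold change of CFTR over vector arrays with its 95% interval (horizontal axis) for MDJ1 (left) and HSP78 (right) under each setting (rows). Every interval lies above 0, while the adjusted p over all genes was under 0.05 (filled red) in 13 of the 23 alternatives for MDJ1 and in 9 of 23 for HSP78.

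Leaving out any of the 4 CFTR arrays ended both calls (limma adjusted p = 0.076 to 0.15 for MDJ1 and 0.082 to 0.19 for HSP78), with log2 fold changes of 0.92 to 0.96 and 0.958 to 0.999. Over all 5449 genes the 50 calls became 2 to 8 in these fits. Leaving out any of vector replicates 4 to 7 ended both calls too (adjusted p = 0.065 to 0.084 and 0.066 to 0.11), with 4 to 17 calls over all genes. Without vector replicate 1 or 2, MDJ1 passed (adjusted p = 0.045 and 0.043) and HSP78 did not (0.078 and 0.074), with 24 and 34 calls over all genes. The direction was upward for both genes in all 23 alternatives, with log2 fold changes of 0.57 to 1.20 for MDJ1 and 0.74 to 1.24 for HSP78. Some of the alternatives could not alter these values. No intensity trend, robust eBayes, the filter on dim genes, the mean of probe sets and the floor on low values left both unchanged. Over the same 23, SSC1 stayed between -0.09 and 0.07, MGE1 between -0.03 and 0.11, HSP60 between 0.04 and 0.21 and HSP10 between -0.09 and 0.29, and none of these 4 passed in any.

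The arrays themselves show which genes kept company. Over the 11 arrays MDJ1 and HSP78 correlated at r = 0.92, over the 7 vector arrays at 0.75 and over the 6 without replicate 3 at 0.19, so that their likeness within the controls lay in replicate 3. SSC1, by contrast, had r = -0.30 with MDJ1 and -0.44 with HSP78 over the 11 arrays, and 0.68 with HSP10. Over the 7 vector arrays SSC1 had -0.71 with MDJ1 and -0.89 with HSP78. ECM10, SSQ1 and JAC1 correlated with each other at 0.80 to 0.83 over the 11 arrays. Over the 6 vector arrays without replicate 3, MDJ1 had 0.98 with ECM10, 0.90 with SSQ1, 0.84 with JAC1 and 0.64 with MGE1. In those arrays it had -0.86 with HSP10, -0.39 with SSC1 and -0.23 with HSP60. These are descriptions of 11 points in 2 groups that share array scaling, dim levels and vector replicates 1 and 2.

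**Figure D4:**
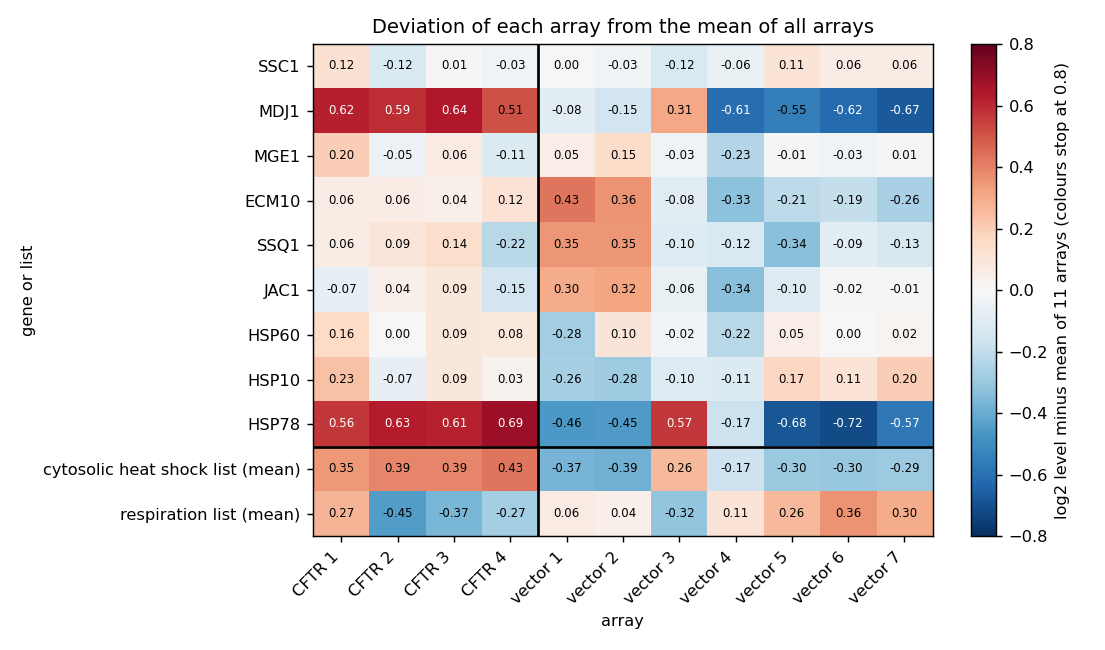
Log2 level of each gene (rows) on each array (columns) minus the mean of the 11 arrays, with the mean of 24 cytosolic heat shock genes and of 45 genes of respiration below. MDJ1 and HSP78 are raised in the CFTR arrays and in vector replicate 3 (0.31 and 0.57), as is the cytosolic list (0.26), and SSC1 stays within 0.12 of its mean on every array.

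Among 4110 genes above the background limit, those most like MDJ1 over the 11 arrays were SEM1 (r = 0.993), which encodes a small subunit of the proteasome lid, AHA1 (0.990), an activator of Hsp90, TAH11 (0.974), a DNA replication licensing factor, FES1 (0.973), an exchange factor of cytosolic Hsp70, and SIS1 (0.973), a cytosolic J protein. Those most like HSP78 were HSP82 (r = 0.987), an Hsp90, SSA4 (0.985), a stress-inducible cytosolic Hsp70, YPL247C (0.984), MBF1 (0.983) and YSC84 (0.976). Of the 5 genes most like MDJ1, 3 (AHA1, FES1 and SIS1) belong to the cytosolic heat shock list described next, and so do 3 of the 5 most like HSP78 (HSP82, SSA4 and MBF1, the last a transcriptional coactivator and no chaperone). That list holds 24 of the genes compared. It was chosen with its values in these data known, and r over arrays in 2 groups includes the difference between the groups. The overlap is therefore a description and no independent evidence. No member of the mitochondrial system is among the 5 genes most like MDJ1 or HSP78 over the 11 arrays. ECM10 and JAC1, with mean levels under the background limit, were not among the genes compared.

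The cytosolic counterparts varied widely. HSP104, the cytosolic relative of HSP78, had 2.85 ± 0.04 in CFTR arrays and 2.04 ± 0.39 in vector arrays (SD, n = 4 and n = 7), a log2 fold change of 0.81 (SE 0.18) that did not pass (limma adjusted p = 0.057). Its vector replicate 3 was at 2.74 and the other vector arrays were at or below 2.21. Of the cytosolic J proteins, SIS1 rose by 0.76 (SE 0.16, adjusted p = 0.047) and YDJ1 had 0.55 (SE 0.16, adjusted p = 0.11). Of the cytosolic Hsp70 genes, SSA4 rose by 2.17 (SE 0.34, adjusted p = 0.018), and SSA1, SSA2, SSA3, SSB1 and SSB2 had 0.54, 0.30, 0.16, 0.07 and 0.02 without passing (adjusted p = 0.092 to 0.91), the last 2 near the -0.01 of SSC1. Exchange factor gene SSE1 had 0.36 (adjusted p = 0.054). SSA1 and SSA2, and SSB1 and SSB2, are pairs of close copies, so their probe sets may not tell them apart. These counterparts were named with their values known. Of 24 genes of cytosolic heat shock chaperones and cofactors, 8 rose and none fell, beside 0.496% and 0.422% of all genes, with a median of 0.56 beside -0.04 for all genes. The count moved with single arrays, and so did that over all 5449 genes, of which 27 were called higher with all 11 arrays. Without vector replicate 3 the list had 18, beside 220 of all genes. Without any one CFTR array it had 1, beside 2 to 6 of all genes. Without any one other vector array it had 1 to 5, beside 4 to 23, and with near-copy arrays averaged 0, beside 1. The median of the list stayed between 0.54 and 0.62 in the 11 fits that left out 1 array. Besides SIS1, FES1, AHA1, HSP82, SSA4 and MBF1, the 8 that rose with all 11 arrays were CPR6, an Hsp90-binding cyclophilin (0.71, SE 0.09, adjusted p = 0.010), and HCH1, a regulator of Hsp90 (0.53, SE 0.11, adjusted p = 0.048). That list was chosen with its values in these data known.

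Of 24 general stress genes, the targets of Msn2 and Msn4, none passed, with a median of 0.32; the trehalose synthesis gene TSL1 had 0.98 (SE 0.27, limma adjusted p = 0.098), GRX1 0.28 (adjusted p = 0.15) and DCS2 0.80 (adjusted p = 0.18). Without vector replicate 3, TSL1, TPS2, GAD1 and GRX1 rose (adjusted p = 0.0096, 0.042, 0.044 and 0.04995), beside 4.04% of all genes. The mean level of the list was 0.42 and 0.47 in vector replicates 1 and 2. It was 1.20 to 1.79 in the other vector arrays and 1.37 to 1.69 in CFTR arrays. The median was 0.78 against vector replicates 1 to 3 alone, where none passed. Against replicates 4 to 7 alone it was 0.24, where 10 rose and 2 fell, beside 1466 and 927 of all 5449 genes.

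No other gene of mitochondrial protein handling that was listed passed the test. Among 71 further genes of import, folding, proteolysis and iron-sulfur cluster assembly the count was 0 (limma; 13 had an unadjusted p under 0.05), and 16 of the 71 had a log2 fold change above 0, against 42.2% of all genes. Of 10 other chaperones and Hsp70 cofactors, with a median of -0.16, the import motor genes PAM18 and TIM44 had -0.31 (SE 0.17) and -0.41 (SE 0.23), and MDJ2, a second J protein gene of the inner membrane, had -0.21 at a level below the background limit (limma adjusted p = 0.35, 0.35 and 0.31). Of 31 genes of protein import, with a median of -0.17, TOM71, a receptor of the outer membrane, had -0.42 (SE 0.09, adjusted p = 0.054) with all CFTR arrays below all vector arrays, as for 3.34% of all genes. TIM23, the channel of the inner membrane, had -0.40 (SE 0.11, adjusted p = 0.11), and ERV1, a sulfhydryl oxidase of the intermembrane space, had 0.32 (SE 0.09, adjusted p = 0.11), with no vector array as high as any CFTR array.

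Of 14 mitochondrial protease and prohibitin genes none passed, with a median of -0.16. YTA10, a subunit of the matrix-facing AAA protease, had -0.43 (SE 0.11, limma adjusted p = 0.083), CYM1, a presequence protease, -0.52 (SE 0.17, adjusted p = 0.14) and OMA1, an inner membrane protease, -0.31 (SE 0.13, adjusted p = 0.23). Of 16 genes of iron-sulfur cluster assembly, the pathway that Ssq1 and Jac1 serve, none passed either, with a median of -0.13. IBA57, which acts late in that pathway, had -0.84 (SE 0.19, adjusted p = 0.059), ARH1 -0.39 (SE 0.12, adjusted p = 0.13) and ISA2 -0.21 (SE 0.08, adjusted p = 0.20), and the CFTR means of CYM1, IBA57 and ARH1 lay under the background limit. Without vector replicate 3, TOM71, TIM23, YTA10, CYM1 and IBA57 fell and ERV1 rose (limma adjusted p = 0.014, 0.032, 0.018, 0.019, 0.0074 and 0.018), beside the 4.04% higher and 5.52% lower of all genes.

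Genes of respiration and the TCA cycle give a measure of mitochondrial gene expression beside the chaperones. Of 45 such genes none passed, 3 had a log2 fold change above 0, and the median was -0.28. KGD1 and KGD2, of the ketoglutarate dehydrogenase complex, had -0.28 each and COR1, of the cytochrome bc1 complex, had -0.65 (limma adjusted p = 0.12, 0.13 and 0.13). Without vector replicate 3, COR1, KGD1, CYT1 and ATP3 fell (adjusted p = 0.028, 0.029, 0.040 and 0.049), beside 5.52% of all genes. The mean level of the list was 2.27 in CFTR replicate 1 and 1.55 to 1.72 in the other 3 CFTR arrays. In vector arrays it was 1.68 in replicate 3 and 2.03 to 2.36 in the other 6. CFTR replicate 1 was thus with the vector arrays in respiration, and it was also the highest of the CFTR arrays for SSC1, HSP60, HSP10 and MGE1 (2.83, 3.29, 2.96 and 1.73), but not for MDJ1 or HSP78. Without CFTR replicate 1 and vector replicate 3 together, MDJ1 had 1.03 and HSP78 1.15 (limma adjusted p = 0.0036 and 0.0010). No other chaperone gene of the 9 passed, and 3.51% of all genes were called higher. In that fit 25 of the 45 respiration genes fell, with a median of -0.50, beside 330 of all 5449 genes. Part of this follows from leaving out 1 array of each group that stood with the other. Against vector replicates 4 to 7 alone 26 of the 45 fell, with a median of -0.46, beside 927 of all genes. Against vector replicates 1 to 3 alone none fell, and the median was -0.13.

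**Figure D5:**
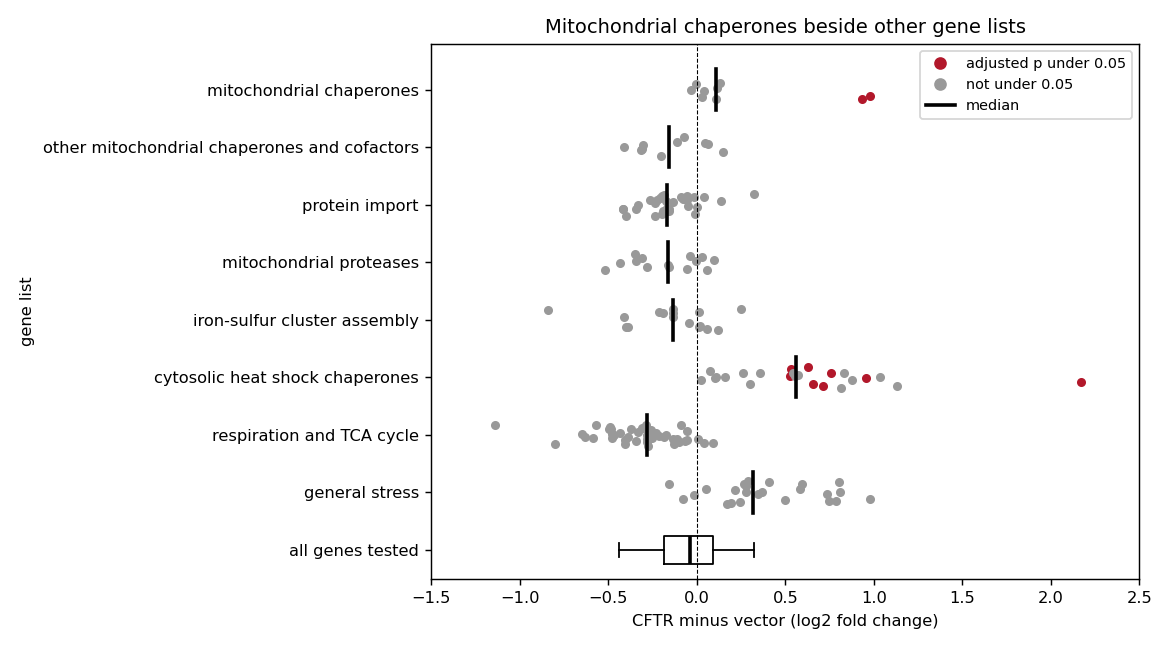
Log2 fold change of CFTR over vector arrays (horizontal axis) for each gene of the 9 mitochondrial chaperones and of 7 other lists (rows), with medians as bars; the box shows the quartiles of all 5449 genes and its whiskers the 5th and 95th percentiles. MDJ1 and HSP78 (0.93 and 0.98) stand apart from the other 7 members, and the 71 further genes of mitochondrial protein handling have no call with all 11 arrays. The cytosolic heat shock list has 8, beside 27 of all genes called higher. Its count was 18 without vector replicate 3 (220 of all genes) and 1 without any one CFTR array (2 to 6 of all genes).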

How the data were processed

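Biotin-labelled cRNA was hybridised to Affymetrix yeast arrays, per the labels' protocols. The file as deposited holds linear intensities, 1 per probe set; tested on it, each array averages 1 over its 10715 probe sets, so each was divided by its own mean, and a change in total RNA cannot be seen. No source used here names the background correction, the summarisation or the software. Precision is limited by the number of arrays and by the spread among the vector arrays.

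Names came from the platform's annotation and the gene table of assembly R64 (names only): 5498 probe sets matched 1 gene, 1746 a gene not in that table, 1 several genes, and 3470 were unnamed. The brightest probe set stood for each of 47 genes with several. The log2 values of 5449 genes were fitted with limma 3.58.1 in R 4.3.3 (eBayes with an intensity trend, Benjamini-Hochberg over all genes), after a test on simulated data. CFTR replicate numbers follow the order of deposition. Ratios of genes within arrays were compared by exact two-sided permutation. Members and lists were chosen with earlier results of these data known. Named were all members, list members past the threshold or else the 3 of smallest p in each list, and the 5 genes most correlated with MDJ1 and HSP78; others are marked. Alternatives were other normalizations, variance models, filters, controls and arrays left out. Figures used matplotlib 3.10.9.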

Additional observations from a re-analysis of the deposited data

Results flagged for a closer look

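In 1 of the 18 sets of arrays examined (9 genes in 2 groups) an array stood far from the rest of its group. HSP78 in vector replicate 3 had a log2 level of 1.98, against 0.70 to 1.24 in the other 6 vector arrays, and the gap to the nearest array was 0.574 of the whole range (Dixon's 95% critical value for 7 arrays is 0.568). Chance flags about 1 in 20 such sets. Vector replicate 3 was also the highest vector array for MDJ1 and had a cytosolic heat shock list mean of 2.44, against 1.79 to 2.01 in the other vector arrays.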

How the results depend on the processing

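MDJ1 and HSP78 kept their upward direction in all 23 alternatives, some of which, named above, could not alter the log2 fold change. The MDJ1 call was lost with the near-copy vector arrays averaged (log2 fold change 0.92) and against vector replicates 1 to 3 alone (0.57). With 1 array left out at a time its log2 fold change was 0.88 to 1.04, and the call was lost in 8 of those 11 fits. The HSP78 call was lost in 14 alternatives, among them no intensity trend and robust eBayes (adjusted p = 0.0501 and 0.052). The number of the 9 members called was 2 as reported. It was 1 with no intensity trend and 1 with robust eBayes, 4 with array weights, and 3 against vector replicates 4 to 7 alone. The number was 0 with near-copy arrays averaged, 0 against vector replicates 1 to 3 alone, and 0 to 2 with 1 array left out. ECM10 and SSQ1 joined under array weights (0.27 and 0.25), which gave vector replicates 1 and 2 weights of 0.076 and 0.069. Over all genes the 50 calls became 200 with quantile normalization, 173 with median centring, 3310 with array weights, 1 with near-copy arrays averaged, 1 against vector replicates 1 to 3 alone, 2393 against replicates 4 to 7 alone, 521 without CFTR replicate 1 and vector replicate 3 together, and 2 to 521 with 1 array left out. The causes were not tested.

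Members whose log2 fold change lay near 0 changed sign without passing. SSC1 had 0.066 with median centring, 0.0054 with near-copy arrays averaged, 0.044 against vector replicates 1 to 3 alone and -0.050 to 0.031 with 1 array left out. HSP10 had -0.090 with array weights and -0.019 against vector replicates 4 to 7 alone. MGE1 had -0.030 against vector replicates 1 to 3 alone, -0.020 without CFTR replicate 1 and vector replicate 3 together, and -0.017 to 0.084 with 1 array left out. Against vector replicates 1 to 3 alone ECM10 had -0.17 and SSQ1 -0.18. SSQ1 had -0.00038 without CFTR replicate 1 and vector replicate 3 together and -0.025 to 0.11 with 1 array left out. JAC1 had 0.054 with quantile normalization, 0.040 with median centring, 0.073 with array weights, 0.011 with near-copy arrays averaged, 0.095 against vector replicates 4 to 7 alone and -0.092 to 0.017 with 1 array left out. The filter on dim genes removed ECM10 and JAC1. The promoter comparison, the protein comparison and the 3' to 5' control probe sets were not run. No paired analysis was possible because the CFTR numbers only follow the order of deposition. Dim signal limits ECM10, JAC1 and SSQ1.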

Other observations

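The genes most like the members whose calls did not pass were examined after their values had been seen, as a description over 11 arrays that share scaling. For each member the 5 most alike are given, except for the dim ECM10, SSQ1 and JAC1. Those of SSC1 were CMC1 (r = 0.93), a cytochrome oxidase assembly factor, the mitochondrial ribosomal protein genes MRPL31 (0.92) and MRPS12 (0.87), COX17 (0.89), a copper chaperone of cytochrome oxidase, and RDL2 (0.89). Those of HSP60 were RPL20A (0.78), STR3 (0.77), HEM3 (0.76), YLR361C-A (0.72) and RPL19A (0.71). The gene most like HSP10 was CPR3 (0.93), which encodes the mitochondrial cyclophilin, with log2 levels of 2.36 ± 0.07 in CFTR arrays and 2.31 ± 0.16 in vector arrays (SD, n = 4 and n = 7). The next most like HSP10 were ZEO1 (0.91), SNU13 (0.88), NCE101 (0.88) and SAM1 (0.87). Those most like MGE1 were MRPL37 (0.95), MET8 (0.92), the small Tim gene TIM12 (0.91), the prohibitin gene PHB2 (0.90) and ELF1 (0.89). ZIM17, which encodes a partner that keeps mitochondrial Hsp70 soluble, had a log2 fold change of 0.06 (95% interval -0.11 to 0.23, limma adjusted p = 0.72).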
